A study of Mus musculus with 20 samples.

Results

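The introns of 8 mouse genes known from earlier work to hold poorly spliced, nuclear-detained introns are described here: the kinase genes Clk1, Clk2, Clk3 and Clk4, the glycosyltransferase gene Ogt, the FET-family genes Ewsr1 and Taf15, and Mat2a, which encodes the enzyme subunit that makes S-adenosylmethionine. They were taken by gene symbol. They hold 99 of the 68794 introns in the deposited table of spliced and unspliced reads, and 36 of the 6537 introns, from 6 of the genes, in the deposited table of splicing intermediates and splice site scores. Clk2 and Taf15 have no intron in the second table.

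The reads are long reads of nascent RNA from murine erythroleukemia (MEL) cells, a single transformed mouse line of red cell precursors, wild type in genotype. The uninduced group (4 samples) was untreated, and the induced group (4 samples) was grown in 2% DMSO for 5 days to start erythroid maturation. In each group 2 replicates were run on both of 2 PacBio instruments. RNA was taken from chromatin and depleted of polyadenylated and ribosomal RNA, so polyadenylated transcripts, the form in which detained introns are usually seen, were largely removed by design. The tables give 1 pooled line per intron and condition. There is therefore no replicate error, and intervals cover at most counting error. A test below compares introns within 1 pool, or the 2 pools of reads, and not 2 conditions.

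In these pools, introns 3 and 4 of Clk1, which flank its exon 4, were spliced in fewer than 3 in 10 of the reads that cover them, while its other introns were spliced in at least 50% of theirs. Intron 4 of Ogt was spliced in 3 of 6 uninduced and 2 of 10 induced reads. The introns before and after it were spliced in all of their 8 and 7 induced reads. Introns 8 and 9 of Ewsr1, beside exons of 35 and 33 bases, had no spliced read among 9 and 10 uninduced reads, and 1 of 8 and 5 of 13 spliced in the induced pool. The last intron of Mat2a had 2 of 12 uninduced and 2 of 4 induced reads spliced. Against adjacent introns, none of 59 uninduced introns was called less spliced, beside 2.12% of all introns tested. In the induced pool 1 of 39, Ogt intron 4, was called less spliced, beside 1.98% of all. None of the 36 introns deep enough in both pools to be tested passed the threshold for a difference between the pools, where 1.61% of all introns tested did. The 6 introns tabulated for Taf15, from a noncoding transcript, were spliced in nearly all reads.

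A detained intron stays in an otherwise finished transcript that is kept in the nucleus, to be spliced later or degraded. In several of these genes the intron is thought to act as a feedback switch. CLK kinases phosphorylate the SR proteins that guide splice site choice and change splicing of their own transcripts, OGT adds O-linked N-acetylglucosamine to nuclear proteins and answers to the level of that sugar through its own intron, and MAT2A responds to S-adenosylmethionine through METTL16 and its last intron. FET proteins bind RNA and take part in transcription and splicing. The intron next to a skipped cassette exon in the Clk genes is a classical case, since transcripts without that exon encode a protein that lacks the kinase domain.

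The splice sites of the introns on which the results turn are printed here, since the Clk genes share an unusual 5' site at intron 4. Each is written 5' to 3' on the strand of the gene, GRCm38; the capitals mark the first and last 2 bases of the intron. A 5' site is 3 exon and 6 intron bases, and a 3' site is 20 intron and 3 exon bases. The Clk1 and Ewsr1 sites are the deposited ones; the others were read from GENCODE release 21 transcripts in which an exon covers the intron, a reading that gave the deposited sequence at all 4 introns where both exist.
Clk1 intron 4, 5' site: gatGTatag
Clk2 intron 4, 5' site: gatGTacaa
Clk3 intron 4, 5' site: gatGTacag
Clk4 intron 4, 5' site: gatGTatag
Clk1 intron 3, 5' site: gggGTatga
Clk2 intron 3, 5' site: tcaGTgagt
Clk3 intron 3, 5' site: tcgGTgagt
Clk4 intron 3, 5' site: tcgGTatga
Clk1 intron 4, 3' site: taattattcctcttttttAGatg
Clk4 intron 4, 3' site: ctttctctcccttactttAGatg
Clk1 intron 3, 3' site: cgcccacttgacgtgtccAGaag
Clk4 intron 3, 3' site: ctgcccacttgccgttccAGaag
Ewsr1 intron 9, 5' site: gtgGTaagt
Ewsr1 intron 9, 3' site: tgatctttcctggttggcAGgac
Mat2a intron 8, 5' site: cagGTaaag
Mat2a intron 8, 3' site: tatggacttgtatattccAGgga

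The commonest base at each of the 9 positions over the 6537 introns of the second table spells AAGGTAAGT, and their median number of matches to it is 6. The intron 4 site of each of the 4 Clk genes matched it at 4 positions. At most 4 matches were found at 99 of the 6537 introns, which is 1.51%; Clk2, Clk3 and Clk4 intron 4 are not among the introns of that table. Counting positions from 1 at the first exon base, all 4 sites carry A1G, G3T and G8A. The base of the consensus at position 8, the fifth of the intron, was present at 80.0% of the introns in the table. The deposited score of the Clk1 intron 4 site was -2.49, with 0.444% of all scored introns at or below it. It was the lowest of the 36 introns of these genes, for which the next was 4.94, at Clk4 intron 2. At Clk1 intron 3 the 5' site scored 5.41, with 9.07% of introns at or below it. Its 3' site scored 4.61, with 6.61% at or below. The 5' sites of Clk1 and Clk4 intron 3 share their intron bases, and none of the intron 3 sites has more than 6 matches. The 5' sites of Ewsr1 intron 9, with 7 matches and a score of 10.36, and of Mat2a intron 8, with 6 matches, are not of this kind. A 3' score below that of Clk1 intron 3 was found at Ewsr1 intron 3 (3.47, 3.50% at or below), which was spliced in 100 of 103 uninduced reads.

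**Figure D1:**
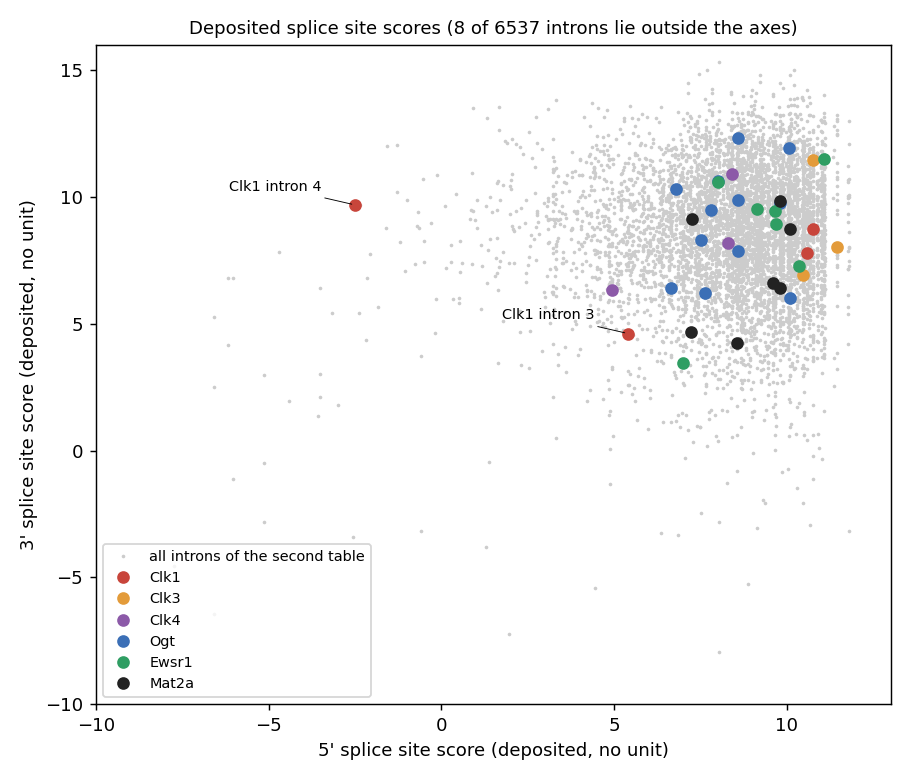
Deposited 5' (horizontal) and 3' (vertical) splice site scores, without unit, of the 36 introns of these genes (coloured by gene) over the 6537 introns of the second table (grey), of which 8 lie outside the axes. Clk1 intron 4 lies far to the left at a 5' score of -2.49, while the other introns of these genes lie inside the grey cloud, with 5' scores from 4.94 to 11.45.

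Splicing of an intron is given as its co-transcriptional splicing efficiency (coSE), the share of the reads over it that are spliced. Clk1, on the minus strand of chromosome 1, had 198 uninduced and 141 induced intron observations; 1 read over several introns gives an observation at each. Intron 3 (chr1:58420212-58421082, 871 bases, between coding exons) had 4 of 14 uninduced reads spliced, for a coSE of 0.286 and a 95% Wilson interval of 0.117 to 0.546. Of its 16 induced reads 2 were spliced (coSE 0.125, 0.0350 to 0.360). Intron 4 (chr1:58419734-58420120, 387 bases, between coding exons) also had 4 of 14 uninduced reads spliced, and 3 of 20 induced reads (coSE 0.15, 0.0524 to 0.360). Both were the lowest of the 10 Clk1 introns with at least 10 reads in the uninduced pool, which is how they were picked as the gene's poorly spliced introns, and in the induced pool, which that choice did not use, they were again the lowest of 6.

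The introns before and after the pair were mostly spliced. Clk1 intron 1 was spliced in 35 of 36 uninduced and 21 of 24 induced reads, and intron 2 in 32 of 38 and 15 of 15. Intron 5, just downstream of the pair, was spliced in 7 of 8 and 10 of 12 reads. From intron 6 to intron 12 the uninduced coSE lay between 0.625 and 1, all above the pair around exon 4. In the induced pool intron 6 was spliced in 6 of 12 reads.

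Clk1 intron 3 was set against its adjacent introns added together. In the uninduced pool 4 of 14 against 36 of 52 observations were spliced (Fisher's exact p = 0.0117, Benjamini-Hochberg adjusted 0.197). In the induced pool 2 of 16 against 18 of 35 were spliced (Fisher's exact p = 0.0125, adjusted 0.214). One of those neighbours is intron 4, itself poorly spliced. Intron 4 did not pass against its own neighbours in either pool. It had 4 of 14 against 11 of 22 spliced in the uninduced pool (Fisher's exact p = 0.302). In the induced pool it had 3 of 20 against 12 of 28 (Fisher's exact p = 0.0592, adjusted 0.589). Against all other introns of the transcript, introns 3 and 4 were each less spliced in both pools by Fisher's exact test, with adjusted p-values of 0.00281 for both in the uninduced pool and of 0.000594 and 0.000141 in the induced pool. With the reads of both pools added together, an alternative chosen after seeing the data, intron 3 was also less spliced than its neighbours (Fisher's exact adjusted p = 0.00413); for intron 4 the adjusted p was 0.265.

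Annotated transcripts of Clk1 differ at the same place. Of 6 that run over both introns, 1 has both introns, 3 join exon 3 to exon 5 and so leave out exon 4, and an exon covers intron 3 in 2. The deposited spliced count is headed as exact, and how a read that leaves out exon 4 entered either count is not stated. Exon 4 is 91 bases long in Clk1 and Clk4, 85 in Clk2 and 97 in Clk3, in no case a multiple of 3, so leaving it out shifts the reading frame. The 4 genes have the same layout of 13 exons, and the 8 exons from 5 to 12 are of identical length in all 4.

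**Figure D2:**
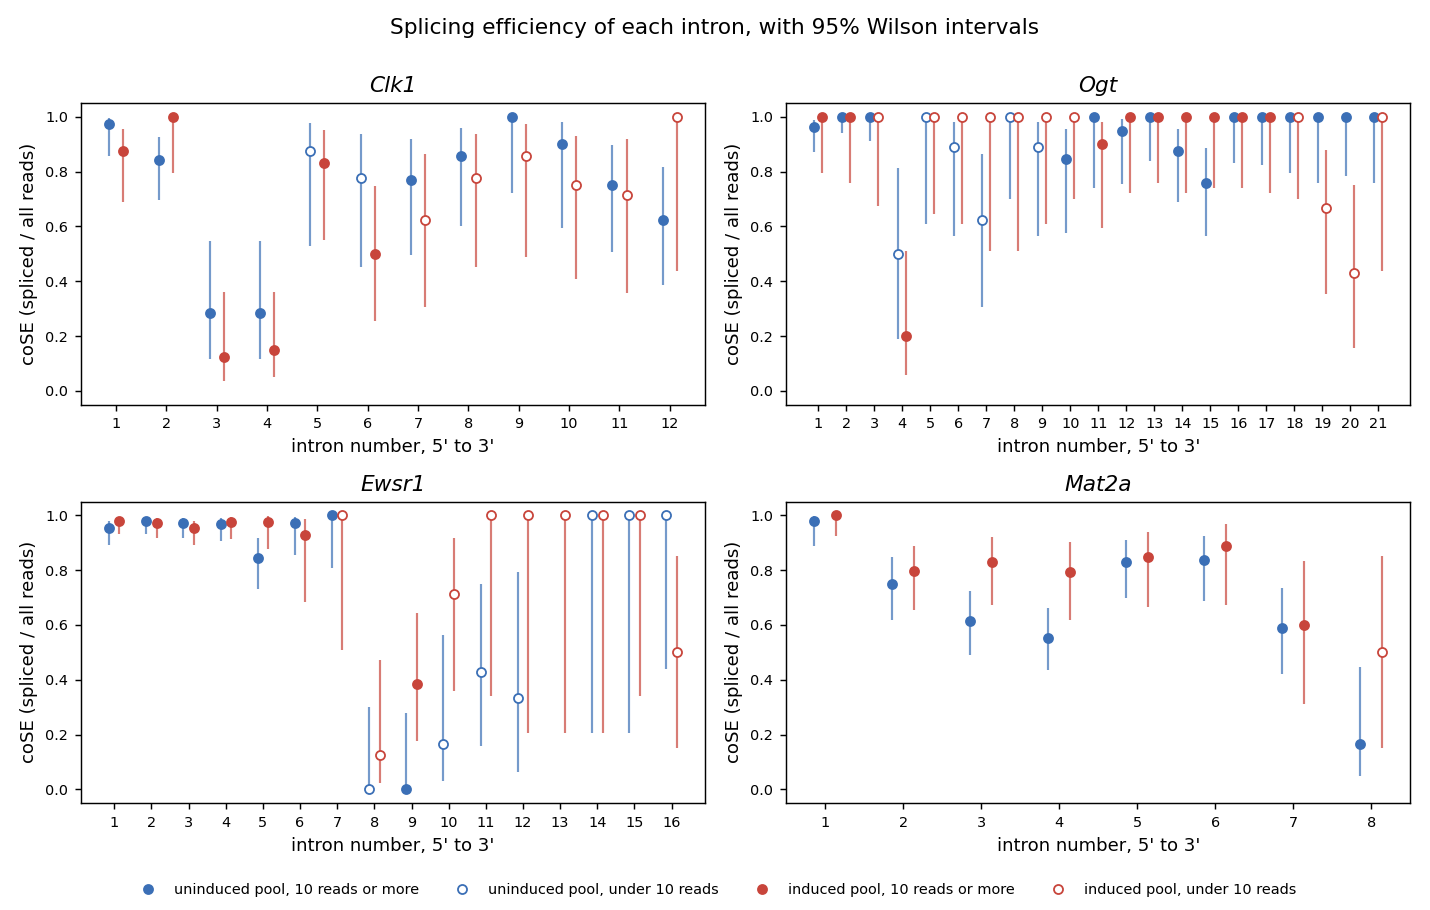
coSE (vertical, spliced over all reads) at each intron in transcript order (horizontal) of Clk1, Ogt, Ewsr1 and Mat2a, in the uninduced (blue) and induced (red) pool; bars are 95% Wilson intervals and open circles have fewer than 10 reads. Clk1 introns 3 and 4 and Ewsr1 introns 8 and 9 lie below the introns that come before each pair. Ogt intron 4 and Mat2a intron 8 lie below the introns before them.

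Clk4, on the plus strand of chromosome 11, has the same 5' site at intron 4 as Clk1 but higher values at the pair. Intron 3 (chr11:51272023-51273077) was spliced in 7 of 7 uninduced and 4 of 7 induced reads, and intron 4 (chr11:51273169-51273559) in 7 of 10 and 4 of 10. The first intron was spliced in 44 of 45 and 23 of 23 reads. In the induced pool intron 4 was the lowest of the 7 Clk4 introns with at least 10 reads, but against its neighbours (12 of 19 spliced) Fisher's exact test gave p = 0.270 (adjusted 1). The lowest uninduced value among introns with at least 10 reads was at intron 7, spliced in 6 of 11 reads and in 7 of 11 induced reads, against 17 of 22 and 19 of 25 at its neighbours, a difference that did not pass in either pool (Fisher's exact adjusted p = 1 in both).

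Clk3 and Clk2, which encode the remaining kinases of the family, were covered by fewer reads. Clk3 intron 3 (chr9:57758724-57760823) was spliced in 5 of 6 uninduced and 2 of 4 induced reads, and intron 4 (chr9:57758351-57758626) in 6 of 8 and 2 of 6. The lowest Clk3 value with at least 10 reads was at its last intron, 12, with 6 of 10 uninduced reads spliced and 1 of 3 induced. Clk2 had at most 6 reads at any intron. Its introns 3 (chr3:89168924-89169617) and 4 (chr3:89169703-89170048) had no uninduced read and were spliced in 2 of 5 and 3 of 5 induced reads. Its other introns together were spliced in 15 of 32 uninduced and 28 of 30 induced observations.

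Since the layout is shared, the 4 Clk genes were also added by position, a sum made after their values were seen and given with no test. Introns 3 and 4 together were spliced in 33 of 59 uninduced observations (coSE 0.559, 0.433 to 0.678). The other positions were spliced in 393 of 478 (0.822, 0.785 to 0.854). In the induced pool the pair was spliced in 22 of 73 observations (0.301, 0.208 to 0.414) against 257 of 317 (0.811, 0.764 to 0.850). A read over several introns counts at each, so these intervals treat shared reads as separate and are too narrow. Clk1 gave 28 of the 59 and 36 of the 73 observations. In each of the 4 genes the induced coSE of the pair was below that of the gene's other introns: 0.139 against 0.800 in Clk1, 0.500 against 0.933 in Clk2, 0.400 against 0.813 in Clk3 and 0.471 against 0.785 in Clk4. Clk2 and Clk3 gave 10 observations each at the pair and Clk4 17. In the uninduced pool the values were 0.286 against 0.847 in Clk1, 0.786 against 0.891 in Clk3 and 0.824 against 0.806 in Clk4, with overlapping Wilson intervals in Clk3 and Clk4, and Clk2 had no read at the pair.

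**Figure D3:**
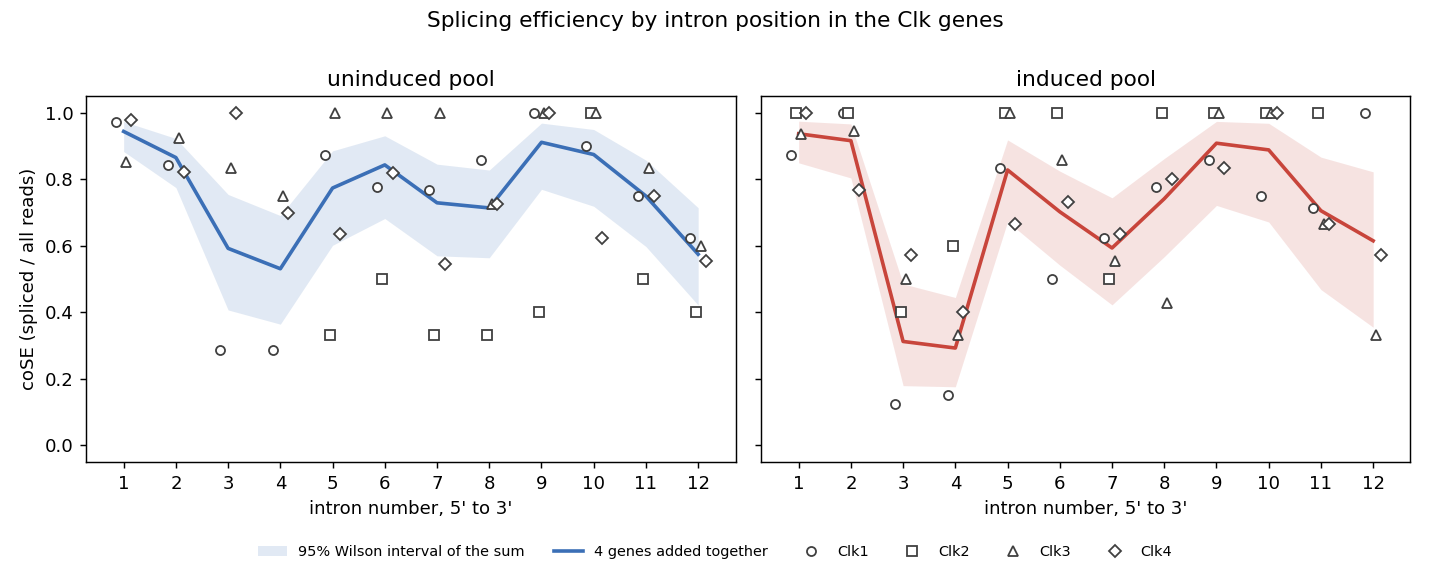
coSE (vertical) by intron number (horizontal) in the 4 Clk genes, uninduced pool left and induced pool right; symbols are genes with at least 1 read, the line is the sum of the 4 genes and the band its 95% Wilson interval. The summed line is lowest at introns 3 and 4 in the induced pool (0.313 and 0.293); in the uninduced pool introns 3, 4 and 12 are low (0.593, 0.531 and 0.575), and at 3 and 4 Clk1 is the lowest gene.

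Ogt, on the plus strand of the X chromosome, was mostly spliced along its length, with a low value at intron 4. Over its 21 introns, 379 of 401 uninduced observations (0.945) and 167 of 183 induced observations (0.913) were spliced. Intron 4 (chrX:101652209-101655623, 3415 bases, between coding exons) had 3 of 6 uninduced reads spliced and 2 of 10 induced reads, the latter a coSE of 0.200 (0.0567 to 0.510). Intron 3 beside it was spliced in 40 of 40 and 8 of 8 reads, and intron 5 in 6 of 6 and 7 of 7. In the induced pool intron 4 was less spliced than these neighbours, 2 of 10 against 15 of 15 (Fisher's exact p = 4.16e-05, adjusted 0.00220). In the uninduced pool it had too few reads for the minimum of 10 and was not tested.

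Read depth also fell at this point of Ogt. The uninduced pool had 52, 60 and 40 reads at introns 1 to 3 and 6 at intron 4, and depth rose again to 25 at intron 15. Intron 15 was the lowest uninduced intron with at least 10 reads, spliced in 19 of 25 reads (0.760, 0.566 to 0.885), but in all 11 induced reads. Against its neighbours (40 of 43 uninduced observations) the difference did not pass (Fisher's exact p = 0.0656, adjusted 0.565). Against all other Ogt introns it did (Fisher's exact adjusted p = 0.0222). Near the 3' end, introns 19 and 20 were spliced in all 12 and 14 uninduced reads but in 6 of 9 and 3 of 7 induced reads, below the depth tested. Of the annotated transcripts, 6 span intron 3 but only 2 span intron 4. Both of these have intron 4, and no annotated exon extends past both of its ends. A transcript that ends inside the intron would not be counted here, and its bearing on the reads was not tested.

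Ewsr1, on the minus strand of chromosome 11, had the most observations of the 8 genes (553 uninduced, 487 induced) but nearly all lay at its first introns. Introns 1 to 4 had between 79 and 105 reads in either pool and a coSE from 0.952 to 0.981. Depth then fell to 16 uninduced and 4 induced reads at intron 7, all spliced. Intron 8 (chr11:5079520-5082252, 2733 bases) was spliced in 0 of 9 uninduced and 1 of 8 induced reads, and intron 9 (chr11:5078953-5079484, 532 bases) in 0 of 10 and 5 of 13. The 0 of 10 is a coSE of 0 with an upper Wilson bound of 0.278, and the induced value is 0.385 (0.177 to 0.645).

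Intron 9 was the lowest Ewsr1 intron with at least 10 reads in the uninduced pool and again the lowest of 7 in the induced pool. The exons on either side of it are 35 and 33 bases long. Exons 2 and 3 of the same gene, of 37 and 52 bases, lie among introns with a coSE of 0.952 or more; exon length was not tested. Introns 8 and 10 beside it were low too in the uninduced pool, with 1 of 15 observations spliced over both. Introns 11 (3 of 7) and 12 (1 of 3) were low there as well. The test of intron 9 against its neighbours gave an exact p of 1 in both pools. Against all other Ewsr1 introns, intron 9 was less spliced in both pools by Fisher's exact test (adjusted p = 4.04e-09 uninduced and 1.20e-05 induced). Intron 10 was spliced in 1 of 6 uninduced and 5 of 7 induced reads. Annotated transcripts differ here as well: 2 of 4 that span intron 8 and 3 of 6 that span intron 9 have them, and an exon covers intron 9 in 1.

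Taf15, a FET gene like Ewsr1, had no intron spliced in fewer than 6 of 7 reads. The transcript tabulated for it is a noncoding one of 6 introns, so the rest of the gene is not seen. Of 53 uninduced observations 52 were spliced, and of 42 induced observations 41. The 2 unspliced reads were at intron 2 in the uninduced pool (10 of 11 spliced) and at intron 5 in the induced pool (6 of 7).

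Mat2a, on the minus strand of chromosome 6, was the least spliced of the well covered genes in the uninduced pool, with 252 of 359 observations spliced (0.702, 0.653 to 0.747), and had 180 of 213 spliced in the induced pool (0.845, 0.790 to 0.888). Its last intron, 8 (chr6:72434396-72434980, 585 bases, between coding exons), had 2 of 12 uninduced reads spliced, a coSE of 0.167 (0.0470 to 0.448), and 2 of 4 induced ones. Intron 7 just upstream was spliced in 20 of 34 and 6 of 10 reads. The difference between introns 8 and 7 in the uninduced pool did not pass (Fisher's exact p = 0.0182, adjusted 0.257); against all other Mat2a introns (250 of 347 spliced) it did (adjusted p = 0.00407). Of 4 annotated transcripts that span the intron 2 have it and 1 has an exon over it.

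Unspliced reads in Mat2a were not limited to the last intron. Intron 1 was spliced in 45 of 46 and 47 of 47 reads. Introns 3 (chr6:72436530-72436994) and 4 (chr6:72436341-72436416, at 76 bases the shortest of the 99 introns) were spliced in 38 of 62 and 38 of 69 uninduced reads, and in 29 of 35 and 23 of 29 induced reads. Intron 1 was more spliced than intron 2 in both pools, 45 of 46 against 39 of 52 (Fisher's exact adjusted p = 0.0348) and 47 of 47 against 35 of 44 (adjusted p = 0.0305). Both calls are lost when introns with 5 reads or more are admitted, which enlarges the number of tests (Fisher's exact adjusted p = 0.0669 and 0.0684).

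**Figure D4:**
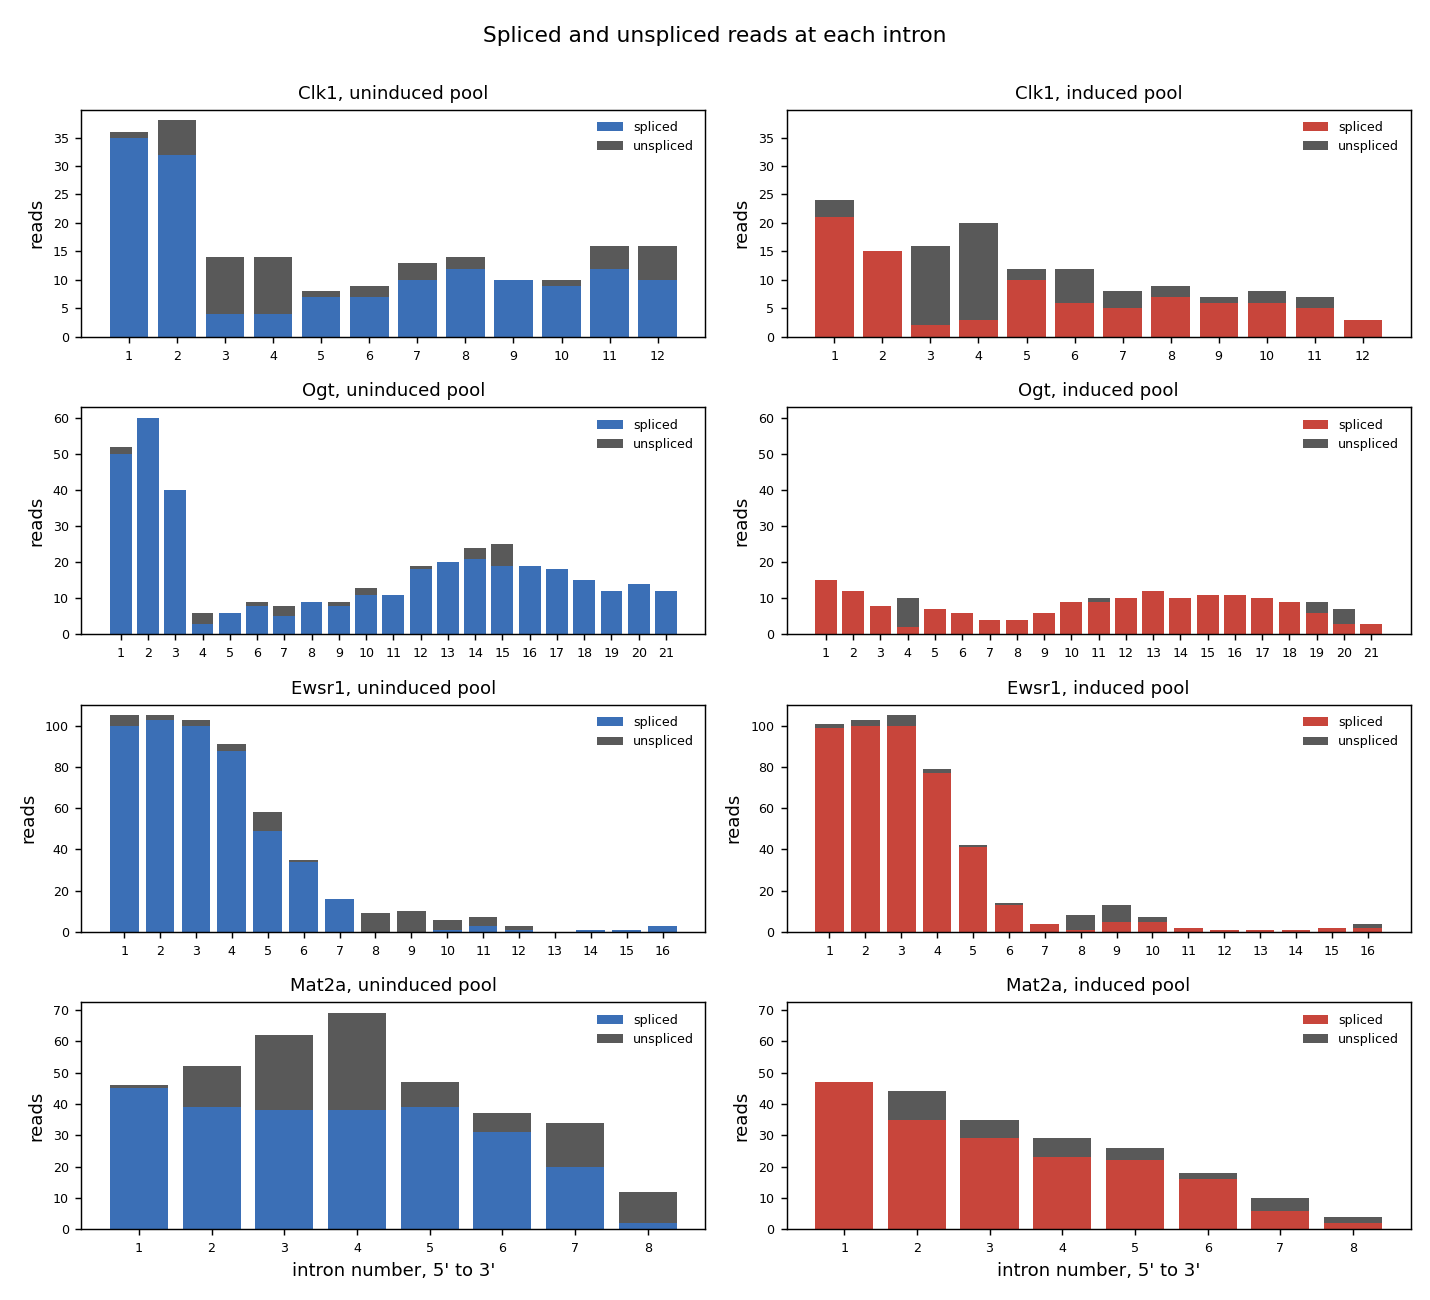
Spliced (colour) and unspliced (dark grey) reads at each intron in transcript order (horizontal) of Clk1, Ogt, Ewsr1 and Mat2a; the vertical axis is the number of reads, the same for both pools of a gene. Ewsr1 falls from about 100 reads at introns 1 to 3 to 10 or fewer past intron 7 in the uninduced pool, Ogt drops to 6 uninduced reads at intron 4, and most reads at Clk1 introns 3 and 4 are unspliced in both pools.

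Over the 8 genes, 59 introns reached 10 reads before induction and 39 after it. Their median coSE was 0.900 in both pools, beside 0.933 and 0.947 over the 9982 and 6333 introns of that depth in the whole table. A coSE under 0.5 was found at 4 of the 59 (6.78%) and 5 of the 39 (12.8%), beside 7.26% and 6.60% of all introns. Low values thus made up a share near that of the table in the uninduced pool. All reads were spliced at 28.8% and 28.2% of them, beside 37.0% and 43.1% of all.

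The comparison with adjacent introns asked which introns stand below their surroundings. In the uninduced pool none of 59 introns was called less spliced than its neighbours, where 2.12% of all introns tested were, and 1 (Mat2a intron 1) was called more spliced, where 1.38% were. A chi-square test also called none less spliced; at an unadjusted exact p under 0.05 there were 6 less and 3 more spliced, beside 6.16% and 4.11% of all introns tested. In the induced pool 1 of 39 (Ogt intron 4) was called less spliced, beside 1.98% of all, and 2 (Mat2a intron 1, and Clk1 intron 5 at an adjusted exact p of 0.0485) more spliced, beside 1.43%. The Clk1 intron 5 call rests on neighbours that include intron 4, and it is lost against all other introns (Fisher's exact adjusted p = 0.683).

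Against all other introns of the same transcript the calls were more frequent, here and in the whole table. In the uninduced pool 6 of 59 introns were less spliced (Clk1 3 and 4, Ogt 15, Ewsr1 9, Mat2a 4 and 8), beside 5.27% of all, and 4 more spliced (the first introns of Clk1, Clk4 and Mat2a, and Ewsr1 2), beside 1.74%. In the induced pool 4 of 39 were less spliced (Clk1 3 and 4, Ogt 4, Ewsr1 9), beside 4.92%, and 3 more spliced (Clk1 2, Clk4 1, Mat2a 1), beside 1.80%. Clk1 3 and 4 and Ewsr1 9 were thus called less spliced in both pools. As given above, Ewsr1 introns 8 and 10 were low too in the uninduced pool, and Ewsr1 9 did not pass against its neighbours in either pool. Reads that cover several introns enter both sides of these tests as if separate.

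The comparison between pools asked whether splicing of these introns differed after DMSO. Of the 36 introns with at least 10 reads in both pools, coSE was higher in the induced pool at 22, lower at 10 and equal at 4, with a median difference of 0.0201. Over all 4403 introns tested it was higher at 1879, lower at 1534 and equal at 990, with a median of 0. None of the 36 passed Fisher's exact test or a chi-square test, where 1.61% of all introns passed the exact one. An unadjusted exact p under 0.05 was found for 4 of them and for 7.97% of all. All 4 were higher in the induced pool: Ewsr1 intron 5, from 0.845 to 0.976 (exact p = 0.0417), Ewsr1 intron 9, from 0 to 0.385 (0.0457), Mat2a intron 3, from 0.613 to 0.829 (0.0389), and Mat2a intron 4, from 0.551 to 0.793 (0.0388). The smallest adjusted p was 0.553. Clk1 introns 3 and 4 differed in the other direction, by -0.161 and -0.136 (induced minus uninduced), with exact p-values of 0.378 and 0.410. These Clk1 introns had 14 to 20 reads in a pool. The largest fall was at Clk4 intron 4, by -0.3 (exact p = 0.370), with 10 reads in each pool.

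**Figure D5:**
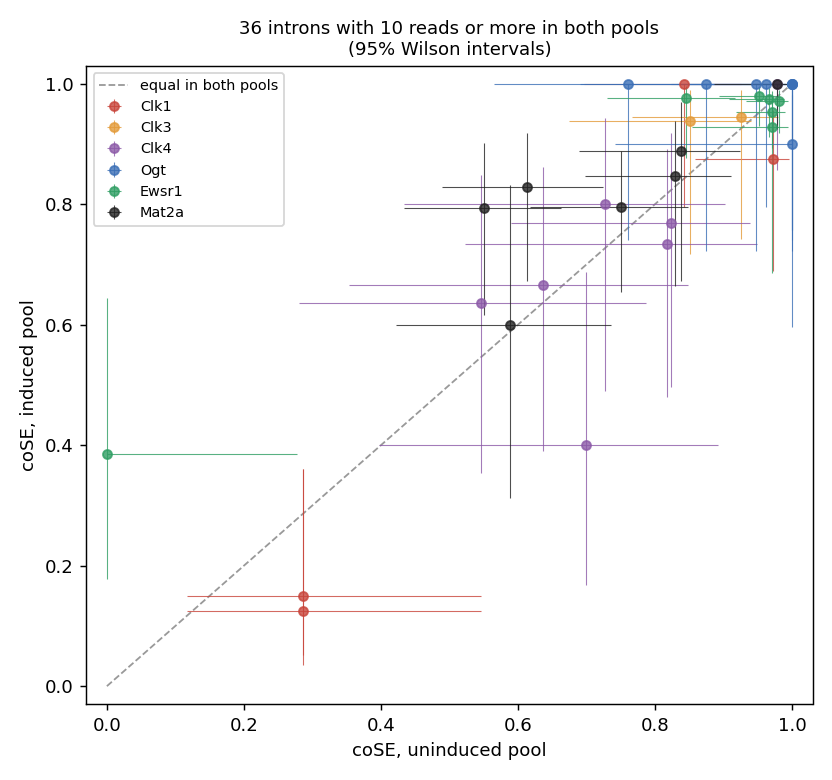
coSE in the uninduced (horizontal) and induced (vertical) pool of the 36 introns with at least 10 reads in both; bars are 95% Wilson intervals, colours are genes, and the dashed line marks equal values. Clk1 introns 3 and 4 are low in both pools, Ewsr1 intron 9 is at 0 and 0.385, and most other introns lie in the upper right.

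The level of nascent reads of each gene, as intron observations per 100000 of the pool, is a description of depth. Its exact Poisson interval treats observations as separate, so it is too narrow where 1 read covers several introns. Fewer cells with the RNA cannot be told apart from less RNA per cell. Clk1 had 47.6 (41.2 to 54.7) uninduced and 50.5 (42.5 to 59.5) induced, Clk3 36.3 and 30.4, and Clk4 37.5 and 44.4. Ogt had 96.3 (87.1 to 106) and 65.5 (56.4 to 75.7). Ewsr1 had 133 (122 to 144) and 174 (159 to 191), while Mat2a had 86.2 and 76.2. Clk2 (32 and 40 observations) and Taf15 (53 and 42) had the fewest in both pools. The pools held 416379 and 279371 observations, of which the 8 genes gave 1903 and 1315. No test was run on these levels, since each condition is 1 pool.

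The second table counts splicing intermediates, taken to be RNAs whose upstream exon has been cut free but is still unjoined, and its NIC value is intermediates over intermediates plus spliced reads. Over the introns of these genes intermediates made up 53 of 1126 such reads (4.71%) before and 11 of 609 (1.81%) after induction, beside 2.71% and 4.35% over all introns of the table; 36 introns entered the first and 20 the second. NIC was 0 at 19 of the 36 and at 13 of the 20. None of the 20 introns with a value in both pools passed Fisher's exact test, nor a chi-square test, where 0.0981% of all passed the exact one. The exact p was under 0.05, unadjusted, at 1, beside 1.67% of all: Ewsr1 intron 9, with 4 intermediates and no spliced read uninduced and 0 of 4 induced (p = 0.0286).

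Of the introns of low coSE in that table, Clk1 intron 3 had 3 intermediates among 6 reads uninduced and 0 of 1 induced, while Clk1 intron 4 had 0 of 3 and 0 of 1. Intermediates were also found at introns that were mostly spliced. Clk4 intron 2, whose 5' site scored 4.94, had 4 of 15 in the uninduced pool. Ogt intron 1 had there 6 of 47, Ewsr1 intron 5 had 6 of 50, and Mat2a intron 5 had 6 of 40. Ogt intron 4, Ewsr1 intron 8 and Mat2a intron 8 are not in the second table.

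As a group, the introns of these genes were shorter than those of the whole table and similar to them in score, a description with no test. Their median length was 653 bases (76 to 8727), beside 1226 over the first table. Their median 5' score was 8.59 and their median 3' score 8.75, beside 8.78 and 8.70 over the second table. Mat2a intron 4 (score 7.26) and intron 3 (9.79) and Ogt intron 15 (8.59) lie in the usual range. Among the scored introns of low coSE, the 5' score was in the lowest 10% of the table at Clk1 introns 3 and 4, and not at Ewsr1 intron 9. Of the same introns, the 3' score was in the lowest 10% at Clk1 intron 3 only.

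A list of 25 further genes with detained introns or with ties to these 8, among them SR proteins and other splicing regulators, holds 198 introns of the first table. In the uninduced pool 83 of them, in 13 genes, were tested against their neighbours; 3 were less spliced and 5 more, beside the 2.12% and 1.38% of all introns given above. Those less spliced were intron 2 of Mdm4 (26 of 46 reads against 93 of 93, Fisher's exact adjusted p = 2.44e-09), which encodes a p53 regulator, intron 5 of Srsf5 (22 of 49 against 160 of 176, adjusted p = 9.37e-09) and intron 3 of Srsf7 (10 of 40 against 94 of 108, adjusted p = 5.30e-10), both SR protein genes. The same 3, with 5 of 13, 16 of 33 and 11 of 33 reads spliced, were called among 67 introns tested in the induced pool, where 1.98% of all were called less and 1.43% more spliced. Those more spliced lay beside them: Mdm4 introns 1 and 3, Srsf5 intron 4 and Srsf7 introns 2 and 4 in the uninduced pool, and these except Mdm4 intron 3 in the induced pool. Against all other introns of the transcript, 8 of 84 uninduced introns were less spliced and 2 more, beside 5.27% and 1.74% of all. In the induced pool 4 of 67 were less spliced and 2 more, beside 4.92% and 1.80%. None of the 60 introns tested between pools passed the exact test, where 1.61% of all did. Oga, the gene of the enzyme opposed to OGT, had 15 introns and none deep enough to test.

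The identity of the cells was checked on marker genes. Erythroid genes gave 153 uninduced and 2458 induced observations per 100000, with reads at 11 of 13 genes uninduced and all 13 induced. Of 10 markers of other cells 9 had no read in either pool, and Pf4, a megakaryocyte gene, had 80 uninduced and 10 induced observations. Whether this change bears on the introns described was not tested.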

How the data were processed

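Members and gene lists were chosen with earlier results of these data known. The tables were used as the authors deposited them: per the file headers, a count of exactly spliced reads and a merged unspliced number in the first, and a count of spliced reads, the number of intermediates, NIC as a fraction, GC as a percent and splice site scores in the second. Each deposited score stands beside its sequence; the scoring program is not given in the sources used here. The submitters' processing notes name cutadapt, minimap2, SAMtools, bedtools, Bowtie and mm10 (and dm3), with no versions or order. How unspliced reads were merged, which runs were pooled and whether molecular identifiers were used are not given in the sources used here. The other 12 of 20 samples were not analysed here.

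Transcripts were matched to GENCODE mouse release 21 on GRCm38; all 99 introns fell on annotated introns after adding 2 to the deposited start and taking 1 from the end (1-based). Oga was matched through its RefSeq synonym. Genes of the further list other than Mdm4, Srsf5, Srsf7 and Oga are not reported by name here. coSE is spliced over spliced plus unspliced reads. Introns needed 10 reads (and 10 at their neighbours). Two-sided Fisher's exact tests (scipy 1.17.1, Python 3.11.15), tested on simulated data, were adjusted by Benjamini-Hochberg over all introns tested, threshold 0.05. Intervals are 95% Wilson or exact Poisson. They treat every observation as separate and cover at most counting error. Reads over several introns and PCR copies are not independent, so the true error can be wider. The poorly spliced intron of a gene is that of lowest uninduced coSE with at least 10 reads. Alternatives changed the read minimum, the test, the neighbours and the spliced count.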

Additional observations from a re-analysis of the deposited data

How the results depend on the processing

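No call on an intron of these genes reversed. Over all introns, 71 differed between pools, and 36 with no read minimum. Of introns less spliced than their neighbours, 203 uninduced and 120 induced became 519 and 307 against all other introns, 133 uninduced with 20 reads on each side, and 440 with both pools added (chosen after seeing the data). Those more spliced, 132 and 87, became 283 with both pools added, and 53 induced with no minimum. The NIC count of 2 became 0 with unspliced reads in the denominator. Fewer or more introns tested, or more reads on a side, are part of these settings. For the introns of these genes, 501 values of the neighbour test kept their call, 16 gained and 7 lost it. The losses were Mat2a intron 1 at minimums of 5 (adjusted p 0.0669 and 0.0684) and 1 read (0.170 and 0.221) and Clk1 intron 5 (0.106 and 0.340, and 0.683 against all other introns). All 120 values of the pool difference, 48 of NIC and 56 of coSE kept theirs; coSE moved by at most -0.109 with the second table's spliced count. No paired analysis was possible because the tables hold no columns per replicate, and leaving out replicates was not run for that reason. Depth limits the values: 2 of 10 spliced reads allow a coSE from 0.0567 to 0.510.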
